A study of Rattus norvegicus with 36 samples.

Results

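The isomiRs Trim AG and Trim A of miR-125b were compared in normoxia, which asks what the loss of a further 3′ base did to the RNA of H9C2 cells that were not deprived of oxygen. The members are 6 of the 36 libraries of the series, the 3 normoxia libraries labelled Trim 2 and the 3 labelled Trim 1. By the protocol in the labels, Trim 1 lacks the last base A of miR-125b and Trim 2 the last bases AG, and they are called Trim A and Trim AG here. H9C2 is an established line of rat myoblasts from heart tissue. Cells of both groups were transfected with 25 nmol/L of a mimic, a synthetic double-stranded copy of a microRNA. They were then kept in fresh medium at normal oxygen. By this protocol the groups share the line, the dose, the transfection method and the medium, and their mimics differ in the last base. Whether the groups were plated and transfected together is not stated, so a difference between cultures cannot be told apart from that of the base. Poly-A RNA was sequenced without strand information, and the deposited value of each gene is a raw read count. Nothing in the labels says that the 3 libraries of a group came from separate cultures, so the p-values measure the spread between these libraries, which may be technical. The level of the mimic inside the cells was not analysed here.

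A microRNA guides the silencing complex to messenger RNAs through its seed, bases 2 to 8 counted from the 5′ end, while its 3′ end contributes to additional pairing and to how long the microRNA persists. miR-125b is abundant in heart and muscle and is known for restraining apoptosis and differentiation genes. IsomiRs are natural variants of a microRNA that differ by a few bases at either end. The mature sequence of rno-miR-125b-5p (RefSeq, gene Mir125b2, GRCr8, chr11:29732588-29732609 on the plus strand) is printed 5′ to 3′ with the seed in capitals, and the Trim sequences are that sequence with the named bases taken from its 3′ end. They are shown because the mimics compared here differ in the terminal g.
miR-125b: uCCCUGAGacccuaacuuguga
Trim A: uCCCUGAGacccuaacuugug
Trim AG: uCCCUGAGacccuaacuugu
Trim AGU: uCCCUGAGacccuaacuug
Trim A has 21 bases and Trim AG has 20, and the seed is the same in both. Of 724 rat mature microRNAs in the RefSeq table, 3 carry this seed, miR-125b-5p, miR-125a-5p and miR-351-5p.

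The 6 libraries held 28361216 to 30547343 counts, and 14799 genes were tested after the filter on low counts. Levels are given as CPM, the counts of a gene per 1e+06 counts of the library after TMM scaling, a log2 fold change is Trim AG minus Trim A, and a gene was called higher or lower at a Benjamini-Hochberg adjusted p below 0.05 in edgeR's quasi-likelihood test and a change of at least 1.5-fold. With Trim AG, 675 genes were called higher (4.56% of those tested) and 677 were called lower (4.57%). The median absolute log2 fold change was 0.80 in both called sets, and 192 of the higher and 183 of the lower genes changed at least 2-fold. In 660 of the higher and 668 of the lower genes the 3 libraries of Trim AG lay on 1 side of the 3 libraries of Trim A, against 47.4% of all genes tested. The first principal component held 44.7% of the variance and separated the groups. The next component held 17.0% and put replicate 1 of both groups at the opposite end from replicate 2 of both groups, so values without both libraries numbered 2 are given where they differ. Genes called lower were the more abundant: they took 8.24% to 8.39% of the counts under Trim A and 4.77% to 5.34% under Trim AG, while genes called higher took 1.37% to 1.39% under Trim A and 2.37% to 2.50% under Trim AG. The median gene length was 2382 bases for genes called higher, 2504 for genes called lower and 2219 for all genes tested.

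**Figure D1:**
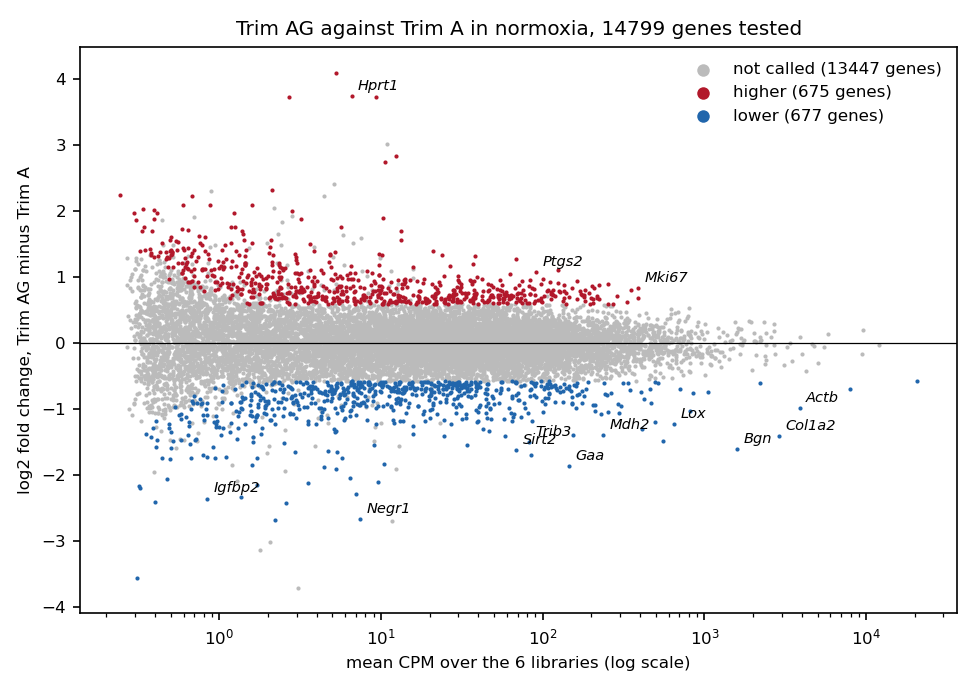
Each point is a gene, with its mean CPM over the 6 libraries on a log scale (x axis) and its log2 fold change of Trim AG minus Trim A (y axis). The 675 genes called higher are red, the 677 called lower are blue, and the blue genes reach further to the right, up to the collagens and Actb.

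The labelled cell type was checked against markers. The 8 cardiomyocyte markers together reached only 4.05 to 5.39 CPM in any of the 6 libraries, and *Myh6*, *Nppa*, *Nppb* and *Ryr2* were each below 1 CPM. The 8 myoblast markers summed to 796 to 862 CPM under Trim A and 707 to 756 CPM under Trim AG, with *Myf5* below 1 CPM. The 8 fibroblast markers, which include 3 collagen genes, summed to 38872 to 40929 CPM under Trim A and 23638 to 26869 CPM under Trim AG, and *Pdgfra* was below 1 CPM. The 8 macrophage markers summed to 21.4 to 22.5 CPM under Trim A and 15.4 to 16.3 CPM under Trim AG. Of these, *Ptprc*, *Itgam*, *Lyz2* and *Aif1* were below 1 CPM and *Adgre1* was at 0. The 4 matched endothelial markers summed to at most 1.88 CPM, and the 7 matched epithelial markers to 33.9 to 45.8 CPM. The epithelial sum was nearly all *Krt8*, since the 6 others were each below 1 CPM. In bulk RNA, fewer cells of a type and less RNA per cell cannot be told apart.

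The called genes with the smallest p among those that fell included enzymes of metabolism and of the matrix. *Lox*, lysyl oxidase, which cross-links collagen and elastin, had the smallest p of all genes, with 927, 886 and 911 CPM under Trim A and 376, 397 and 385 CPM under Trim AG. Its log2 fold change was -1.24 ± 0.04 (SE, edgeR adjusted p = 8.5e-07), 2.36-fold lower. *Aldh1l2*, a mitochondrial enzyme of folate metabolism, had 65.0, 66.4 and 67.8 CPM under Trim A and 26.2, 26.4 and 26.2 CPM under Trim AG, a log2 fold change of -1.34 ± 0.05 (SE, edgeR adjusted p = 8.5e-07). In both genes every Trim AG library lay far below every Trim A library. *Mdh2*, the mitochondrial malate dehydrogenase, gave 352, 343 and 333 CPM under Trim A and 125, 138 and 128 CPM under Trim AG, a log2 fold change of -1.40 ± 0.05 (SE, edgeR adjusted p = 1.1e-06). *Sirt2*, an NAD-dependent deacetylase, gave 102, 108 and 101 CPM under Trim A and 33.6, 36.7 and 30.3 CPM under Trim AG, 3.10-fold lower with a log2 fold change of -1.63 ± 0.07 (SE, edgeR adjusted p = 2.4e-06). *Gadd45a*, a growth arrest gene, gave 80.0, 80.1 and 78.4 CPM under Trim A and 34.2, 37.7 and 35.8 CPM under Trim AG, with a log2 fold change of -1.15 ± 0.05 (SE, edgeR adjusted p = 2.6e-06). These 5 genes were named by small p among called genes whose groups did not overlap, so their close replicates follow from that rule. The files place *Lox* (ENSRNOG00000014426) on chromosome 18 from 47500330 to 47577819, *Mdh2* (ENSRNOG00000001440) on chromosome 12 from 23941448 to 23954431 and *Sirt2* (ENSRNOG00000020102) on chromosome 1 from 86948918 to 86971952, in a genome build that is not given in the sources used here.

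Among coding genes called lower that averaged 5 CPM or more and whose groups did not overlap, the 10 that fell most were *Negr1*, *Gaa*, *Bbip1*, *Thbs2*, *Bcas1*, *Sirt2*, *Bgn*, *Mettl5*, *Trib3* and *Msn*. *Negr1*, a cell adhesion gene, had 12.2, 13.8 and 12.6 CPM under Trim A and 2.17, 2.49 and 1.39 CPM under Trim AG, and its log2 fold change was -2.68 ± 0.19 (SE, edgeR adjusted p = 1.1e-05). *Gaa*, the lysosomal acid alpha-glucosidase that breaks down glycogen, had 237, 227 and 225 CPM under Trim A and 60.6, 72.0 and 55.3 CPM under Trim AG, 3.67-fold lower with a log2 fold change of -1.87 ± 0.09 (SE, edgeR adjusted p = 2.6e-06). *Msn*, moesin, which ties actin filaments to the cell membrane, had 806, 865 and 794 CPM under Trim A and 265, 355 and 259 CPM under Trim AG, a log2 fold change of -1.49 ± 0.11 (SE, edgeR adjusted p = 1.2e-05). Replicate 2 was the highest of the 3 Trim AG libraries in each of these 3 genes, yet far below every Trim A library. *Bbip1*, a subunit of the ciliary BBSome, fell by 1.84 on the log2 scale, *Mettl5*, a ribosomal RNA methyltransferase, by 1.55 and *Bcas1* by 1.66. *Actb*, the cytoplasmic actin that is often taken as a reference gene, gave 5244, 5368 and 4936 CPM under Trim A and 2579, 2806 and 2449 CPM under Trim AG. Its log2 fold change was -0.99 ± 0.05 (SE, edgeR adjusted p = 3.1e-06), so its level under Trim AG was close to a factor of 0.50 of that under Trim A. By the paper's methods, β-actin was also the reference of its RT-qPCR of messenger RNAs.

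**Figure D2:**
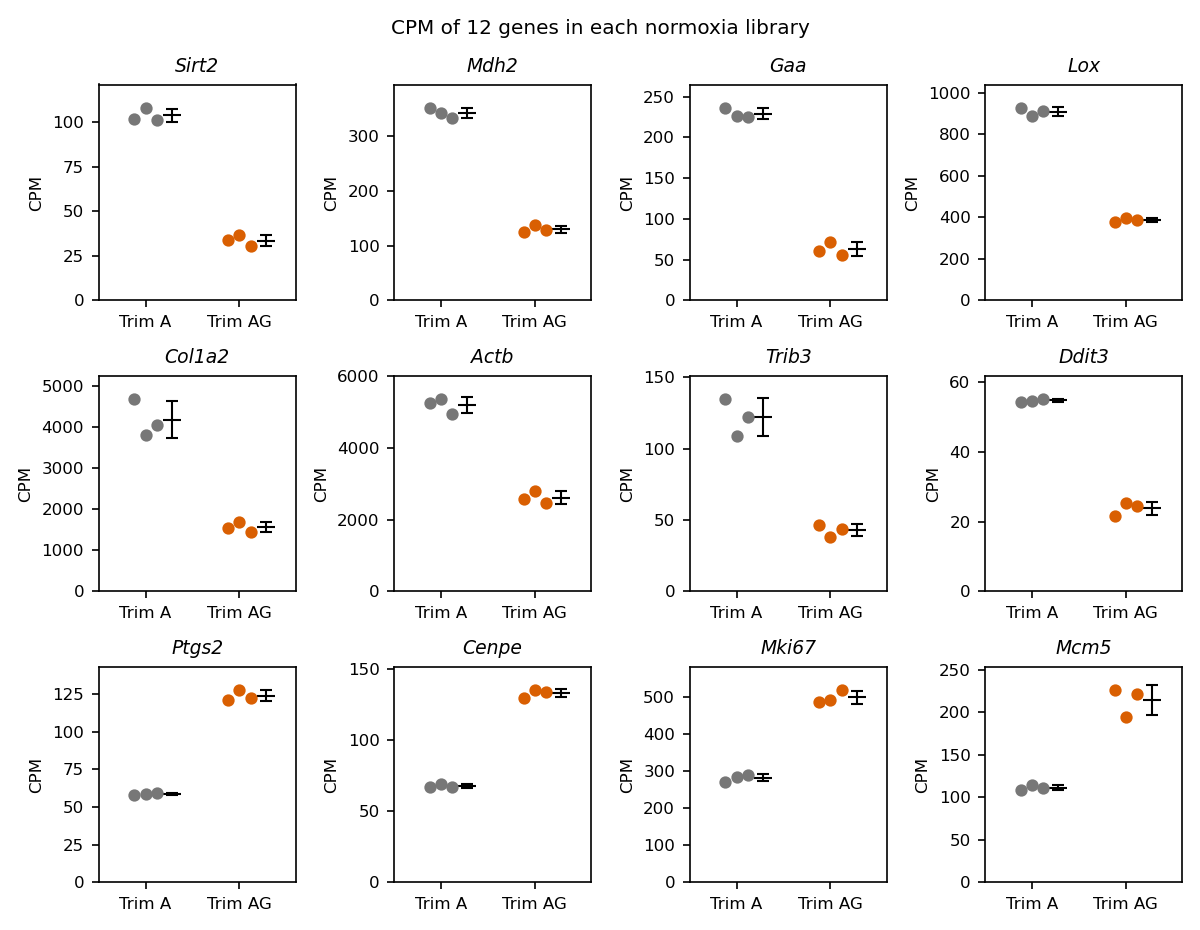
CPM (y axis, from 0) of 12 genes in each library of Trim A (grey) and Trim AG (orange), with the mean and SD of the 3 libraries beside the points. In all 12 panels the libraries of the groups do not overlap, from *Sirt2* at 101 to 108 against 30.3 to 36.7 CPM to *Mki67* at 271 to 289 against 487 to 520 CPM. The 12 genes were picked from those called, most of which do not overlap.

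Among the genes that rose, *Ptgs2*, the inducible cyclooxygenase, had the smallest p, with 57.8, 58.8 and 59.1 CPM under Trim A and 121, 128 and 122 CPM under Trim AG. Its log2 fold change was 1.08 ± 0.05 (SE, edgeR adjusted p = 2.4e-06), 2.11-fold higher. *Phf19*, a Polycomb-associated protein, had 10.7, 12.5 and 11.4 CPM under Trim A and 32.2, 27.8 and 30.7 CPM under Trim AG, a log2 fold change of 1.39 ± 0.08 (SE, edgeR adjusted p = 4.4e-06). *Il18rap*, an accessory chain of the interleukin-18 receptor, had 24.5, 21.1 and 22.6 CPM under Trim A and 54.1, 50.3 and 51.0 CPM under Trim AG, a log2 fold change of 1.19 ± 0.06 (SE, edgeR adjusted p = 3.6e-06). *Hmgb2*, a chromatin protein of dividing cells, went from 75.5 to 82.5 CPM under Trim A to 155 to 181 CPM under Trim AG, a log2 fold change of 1.10 ± 0.06 (SE, edgeR adjusted p = 4.3e-06). The rule that named these 4 genes required groups that did not overlap. *Net1*, an activator of the GTPase RhoA, rose by 1.15, *Foxn1* by 1.33, *Krt80*, a keratin, by 1.17 and *Kif20b*, a kinesin, by 0.90 on the log2 scale. *Hist1h3a*, a histone gene, rose by 1.34, and as a member of a family of near-identical copies its count is uncertain.

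In a pair of the named genes that rose, replicate 2 of Trim AG stood apart. *Hprt1*, a purine salvage enzyme often taken as a reference gene, had 1.06, 0.589 and 1.09 CPM under Trim A and 1.31, 33.5 and 1.84 CPM under Trim AG, so only replicate 2 stood apart. Its log2 fold change was 3.74 ± 1.14 (SE, edgeR adjusted p = 0.03), and without that library it was 0.78 (edgeR adjusted p = 0.10). The call was also lost without any library of Trim A, with edgeR adjusted p from 0.072 to 0.093. *Zswim8*, which takes part in the target-directed decay of microRNAs, had 4.81, 6.55 and 4.34 CPM under Trim A and 8.96, 17.3 and 7.02 CPM under Trim AG, a log2 fold change of 1.08 ± 0.31 (SE, edgeR adjusted p = 0.022). Its call was lost without Trim A replicate 1 (edgeR adjusted p = 0.062) and without Trim A replicate 3 (edgeR adjusted p = 0.076), while without Trim AG replicate 2 its log2 fold change was 0.60 and it was still called. Of 25 tested genes of the microRNA machinery it alone was called, where 4.56% of all genes tested were called higher. The other 24 lay between -0.32 and 0.47 on the log2 scale.

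The genes of mitosis rose together. They encode the cyclins and kinases that start mitosis, the motors and microtubule proteins of the spindle, the kinetochore and its checkpoint, and the ring that divides the cell. Of 43 tested members of this list, 35 were called higher and 0 lower, where 4.56% of all genes tested were called higher. All 43 had a positive log2 fold change with libraries that did not overlap. Of all 14799 genes tested, 7504 were positive, and in 47.4% the libraries did not overlap in either direction. The median log2 fold change of the list was 0.72, against 0.01 for all genes tested. At the kinetochore, *Cenpe*, a motor that aligns chromosomes, had 66.8, 69.6 and 67.0 CPM under Trim A and 129.8, 136 and 134 CPM under Trim AG, a log2 fold change of 0.97 ± 0.05 (SE, edgeR adjusted p = 2.6e-06), and *Cenpf* had a log2 fold change of 0.86 ± 0.04 (SE, edgeR adjusted p = 3.1e-06). Among spindle and cleavage genes, *Anln*, a scaffold of the contractile ring, had 178, 172 and 179 CPM under Trim A and 334, 325 and 323 CPM under Trim AG, a log2 fold change of 0.89 ± 0.04 (SE, edgeR adjusted p = 3.0e-06). *Kif23*, a motor of the central spindle, rose by 0.87, *Prc1*, which bundles spindle microtubules, by 0.81 and *Tpx2*, a spindle assembly factor, by 0.87 on the log2 scale. For the regulators, *Ccnb1*, the mitotic cyclin, went from 121 to 130 CPM under Trim A to 207 to 224 CPM under Trim AG, and its partner kinase *Cdk1* rose by 0.72, the checkpoint gene *Mad2l1* by 0.88 and the kinase *Plk1* by 0.67. *Mki67*, the proliferation marker, had 271, 285 and 289 CPM under Trim A and 487, 491 and 519.7 CPM under Trim AG, a log2 fold change of 0.82 ± 0.05 (SE, edgeR adjusted p = 4.3e-06). Within each group the replicates of these genes differed far less than the groups did. The 8 members that were not called had log2 fold changes of 0.24 to 0.57, and 32 to 35 members were called higher when each library was left out in turn.

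Of the DNA replication genes, 20 rose. This list holds the origin recognition and MCM helicase subunits, the polymerases and clamp, and the enzymes that supply nucleotides. All 45 tested members had a positive log2 fold change, and the median was 0.56, against 0.01 for all genes tested. These 20 were called higher and 0 lower, where 4.56% of all genes tested were called higher. *Rrm1*, the large subunit of ribonucleotide reductase, had 297, 303 and 292 CPM under Trim A and 477, 467 and 487 CPM under Trim AG, a log2 fold change of 0.68 ± 0.04 (SE, edgeR adjusted p = 4.3e-06). *Tyms*, thymidylate synthase, had 20.7, 23.1 and 22.1 CPM under Trim A and 41.9, 40.2 and 40.2 CPM under Trim AG, a log2 fold change of 0.89 ± 0.06 (SE, edgeR adjusted p = 5.8e-06). *Mcm5*, a subunit of the replicative helicase, had 109, 115 and 110.4 CPM under Trim A and 226, 194 and 222 CPM under Trim AG, a log2 fold change of 0.94 ± 0.06 (SE, edgeR adjusted p = 6.2e-06). In all 3 genes the lowest Trim AG library was more than 1.5 times the highest Trim A library. The histone chaperone gene *Chaf1a* rose by 0.68, the licensing factors *Cdc6* and *Cdt1* by 0.84 and 0.72, the helicase subunit *Mcm3* by 0.76 and the clamp gene *Pcna* by 0.66 on the log2 scale. The 25 members not called lay between 0.01 and 0.58.

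Since both lists moved together, promoters of their members were searched for the letters of 2 known cell cycle elements. RefSeq promoters (GRCr8, 250 bases before to 50 after each start site) were matched by symbol for 30 of the 35 mitosis genes called higher and for 17 of the 20 replication genes. TTTGAA, the core of the cell cycle homology region, on either strand, was in 21 of the 30 mitosis genes, in 7 of the 8 mitosis genes that were not called, and in 2 of the 17 replication genes. It was in 19.4% of all 27457 genes with a promoter listed and in 12.6% of the 9208 tested genes that could be matched. TTTGGCGC or TTTCGCGC, E2F sites, on either strand, were in 9 of the 17 replication genes called higher, in 4 of 20 replication genes not called and in 1 of the 30 mitosis genes, against 0.892% of all genes with a promoter listed and 1.61% of matched tested genes. A match is a description of the letters and not of binding. The 60 bases around the match nearest the start site are shown for the 3 genes of each list with the smallest p that held the letters, in the direction of the gene, with the match in capitals.
Anln: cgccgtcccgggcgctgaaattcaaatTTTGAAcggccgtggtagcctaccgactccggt
Cenpf: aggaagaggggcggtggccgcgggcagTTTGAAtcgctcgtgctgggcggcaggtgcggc
Kif23: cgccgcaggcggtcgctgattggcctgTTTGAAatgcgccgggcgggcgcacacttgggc
Tyms: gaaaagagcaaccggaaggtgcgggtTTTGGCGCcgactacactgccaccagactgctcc
Mcm5: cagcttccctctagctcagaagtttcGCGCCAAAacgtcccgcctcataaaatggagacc
Mcm3: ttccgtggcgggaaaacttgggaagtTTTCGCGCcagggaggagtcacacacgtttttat
They lie at chr8:29197505-29197564 on the minus strand (*Anln*), chr13:103760852-103760911 on the minus strand (*Cenpf*), chr8:71320631-71320690 on the minus strand (*Kif23*), chr9:120776087-120776146 on the minus strand (*Tyms*), chr19:13488578-13488637 on the plus strand (*Mcm5*) and chr9:30733700-30733759 on the minus strand (*Mcm3*). The match began 24 bases before the start site in *Anln*, 79 before in *Kif23*, 37 before in *Tyms* and 209 before in *Mcm5*, and 2 bases after it in *Cenpf* and 13 after it in *Mcm3*. In *Mcm5* the capitals are the reverse complement of TTTGGCGC, and a TTTCGCGC overlaps them.

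**Figure D3:**
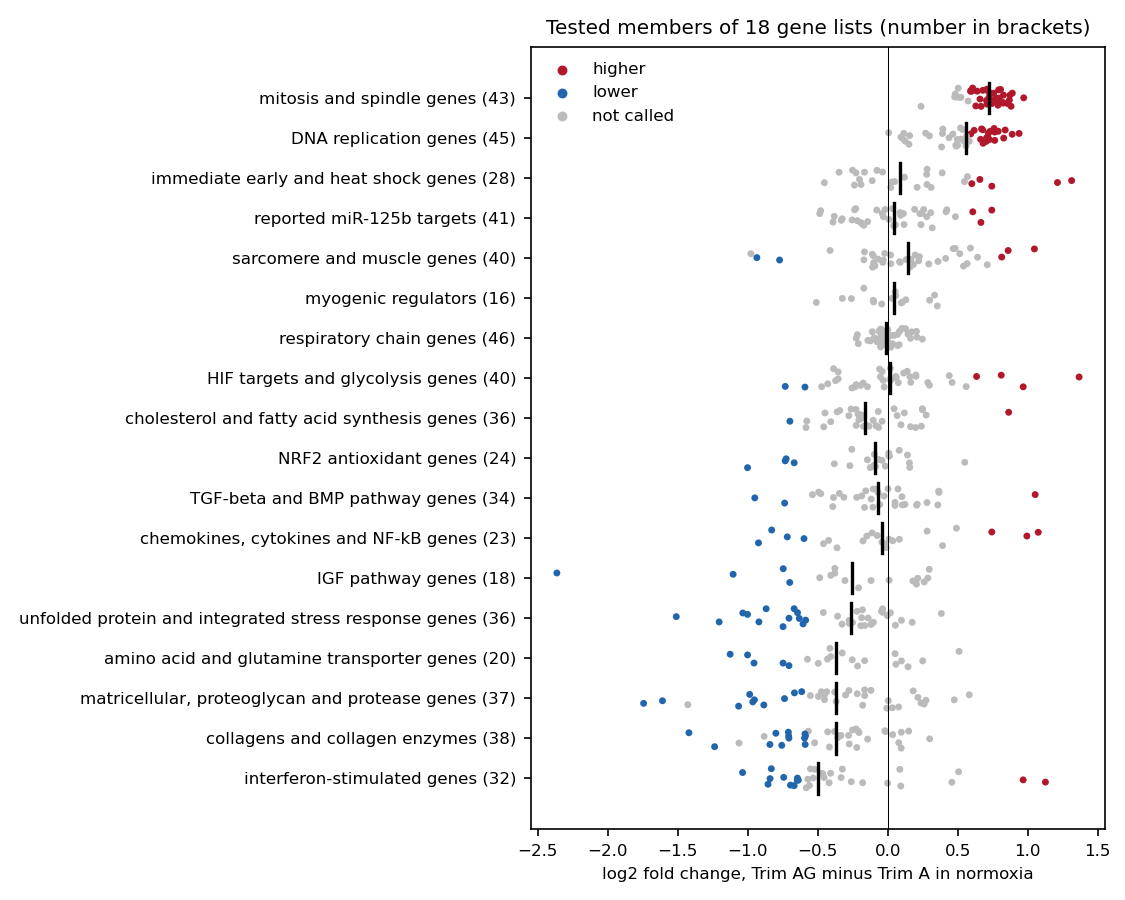
Log2 fold change (x axis) of every tested member of 18 gene lists (y axis, number of members in brackets), red where called higher, blue where called lower and grey where not called, with a black bar at the median. The mitosis and replication lists lie to the right of 0 in full, and the collagen, matrix, interferon, amino acid transporter and stress response lists hold most of the blue points.

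A part of the genes of the unfolded protein and integrated stress responses fell with Trim AG. In these pathways kinases such as the product of *Eif2ak3* slow translation when proteins misfold or amino acids run short, and the factor ATF4 then switches on genes for amino acid uptake and synthesis, together with regulators such as *Ddit3*. Of 36 tested members, 13 were called lower and 0 higher, against 4.57% of all genes tested called lower, 31 were negative, and the median was -0.26. Among the regulators, *Atf5*, a transcription factor, had 619, 596 and 611 CPM under Trim A and 311, 314 and 342 CPM under Trim AG, a log2 fold change of -0.92 ± 0.05 (SE, edgeR adjusted p = 3.1e-06). *Ddit3*, which encodes CHOP, had 54.4, 54.7 and 55.3 CPM under Trim A and 21.6, 25.3 and 24.5 CPM under Trim AG, a log2 fold change of -1.20 ± 0.06 (SE, edgeR adjusted p = 3.6e-06). *Trib3*, a pseudokinase of the same response, had 135, 109 and 122 CPM under Trim A and 46.8, 38.3 and 43.5 CPM under Trim AG, 2.85-fold lower with a log2 fold change of -1.51 ± 0.09 (SE, edgeR adjusted p = 4.4e-06). The Trim A libraries of *Ddit3* were nearly equal, whereas those of *Trib3* spread more widely. *Chac1*, which degrades glutathione, had 96.4, 88.7 and 88.4 CPM under Trim A and 50.5, 50.0 and 49.6 CPM under Trim AG, a log2 fold change of -0.87 ± 0.05 (SE, edgeR adjusted p = 4.3e-06). *Phgdh*, the first enzyme of serine synthesis, had 308, 262 and 279 CPM under Trim A and 139, 135 and 141 CPM under Trim AG, a log2 fold change of -1.04 ± 0.06 (SE, edgeR adjusted p = 4.4e-06), and *Asns*, asparagine synthetase, had 206, 174 and 187 CPM under Trim A and 118, 114 and 132 CPM under Trim AG, a log2 fold change of -0.64 ± 0.07 (SE, edgeR adjusted p = 0.00017). *Eif2ak3* itself was called lower, with a log2 fold change of -0.67. The 23 members not called lay between -0.46 and 0.38, and 10 to 13 members were called lower when each library was left out in turn.

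Of the 20 tested genes of a separate list of amino acid and glutamine transporters, 5 were called lower and 0 higher, against 4.57% of all genes tested called lower, and the 15 not called lay between -0.57 and 0.51. *Slc3a2*, the heavy chain shared by several amino acid transporters, had 525, 482 and 511 CPM under Trim A and 308, 293 and 305 CPM under Trim AG, a log2 fold change of -0.75 ± 0.05 (SE, edgeR adjusted p = 4.5e-06). Its partners *Slc7a5* and *Slc7a11*, for large neutral amino acids and for cystine, were both called lower, with a log2 fold change of -0.71 for *Slc7a5* and from 29.2, 24.5 and 29.1 CPM to 14.6, 13.5 and 13.2 CPM for *Slc7a11*, and the glycine transporter *Slc6a9* changed by -0.96. The median of the transporter list was -0.37, and 3 of its 5 genes called lower also stand in the stress response list. TGATGNAA, the composite site of ATF4 and CEBP factors, was searched on either strand. It was in the promoters of 3 of the 13 stress response genes called lower, *Chac1*, *Trib3* and *Herpud1*, and in 1 of the 18 matched members not called. All genes with a promoter listed held it in 4.16%, and matched tested genes in 2.13%. The 60 bases around the match are shown for these genes, with the reverse complement of the site in capitals.
Chac1: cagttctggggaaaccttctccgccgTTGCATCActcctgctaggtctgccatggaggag
Trib3: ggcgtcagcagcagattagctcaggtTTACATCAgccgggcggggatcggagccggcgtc
Herpud1: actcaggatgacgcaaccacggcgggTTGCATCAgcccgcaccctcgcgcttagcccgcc
They lie at chr3:126795938-126795997 on the plus strand (*Chac1*), chr3:161275521-161275580 on the minus strand (*Trib3*) and chr19:10614858-10614917 on the minus strand (*Herpud1*), 167, 21 and 184 bases before the start site. *Herpud1*, which serves the disposal of misfolded proteins, was at the threshold, with a log2 fold change of -0.59 ± 0.05 (SE, edgeR adjusted p = 3.7e-05), and lost its call in 5 of 13 alternatives.

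A part of the genes of the extracellular matrix fell. Fibrillar collagens are made as long chains that are hydroxylated, trimmed and cross-linked by dedicated enzymes, and proteoglycans and matricellular proteins decorate the fibres. Of 38 tested collagens and collagen enzymes, 12 were called lower and 0 higher, against 4.57% of all genes tested called lower, and the median log2 fold change was -0.37. *Col1a2*, a chain of type I collagen, had 4696, 3801 and 4063 CPM under Trim A and 1548, 1699 and 1454 CPM under Trim AG, a log2 fold change of -1.42 ± 0.08 (SE, edgeR adjusted p = 4.3e-06). *Col3a1*, of type III collagen, had 8872, 10646 and 9977 CPM under Trim A and 5524, 6721 and 5844 CPM under Trim AG, a log2 fold change of -0.71 ± 0.08 (SE, edgeR adjusted p = 0.00013). *Col1a1*, the other chain of type I collagen and the most abundant of these, had 24313, 25218 and 24860.0 CPM under Trim A and 15688, 17319 and 16601 CPM under Trim AG, a log2 fold change of -0.59 ± 0.03 (SE, edgeR adjusted p = 4.4e-06). It lay at the 1.5-fold threshold, and without Trim A replicate 2, Trim A replicate 3 or Trim AG replicate 1 its log2 fold change was -0.58, -0.58 and -0.55. The groups did not overlap in any of the 3 collagens, and the chains of type I collagen differed in how far they fell. Among the enzymes, *Lox* is given above, *P4ha1*, a prolyl hydroxylase, changed by -0.59 (-0.54 without Trim AG replicate 1 and -0.56 without replicate 3, under the threshold) and *Adamts2*, a procollagen protease, by -0.71. Between 8 and 13 members were called lower when each library was left out in turn.

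Of 37 tested matricellular, proteoglycan and protease genes, 10 were called lower and 0 higher, against 4.57% of all genes tested called lower, with a median of -0.37. *Bgn*, biglycan, a small proteoglycan, had 2420.5, 2458 and 2297 CPM under Trim A and 673, 996 and 685 CPM under Trim AG, a log2 fold change of -1.61 ± 0.13 (SE, edgeR adjusted p = 2.2e-05). *Mmp14*, a membrane-bound collagenase that activates other proteases, had 399.6, 401 and 399 CPM under Trim A and 184, 210.2 and 180.3 CPM under Trim AG, a log2 fold change of -1.07 ± 0.06 (SE, edgeR adjusted p = 4.3e-06). *Thbs2*, a thrombospondin, had 6.71, 11.6 and 8.21 CPM under Trim A and 2.31, 2.80 and 2.82 CPM under Trim AG, a log2 fold change of -1.74 ± 0.21 (SE, edgeR adjusted p = 0.00021). *Ctgf*, a matricellular target of TGF-beta and mechanical signals, changed by -0.61, and by -0.57 without Trim A replicate 1 or without Trim AG replicate 3, under the threshold. *Mmp14* was almost equal in the 3 Trim A libraries, whereas replicate 2 of Trim AG was above the other two in *Mmp14* and *Bgn*. This count depends on single libraries: without Trim A replicate 2, 6 members were called lower, without Trim AG replicate 1, 6, and without Trim AG replicate 3, 5. With each of these 3 libraries left out in turn, 1 member was called higher. Of 8 fibroblast markers 5 were called lower, *Col1a1*, *Col1a2*, *Col3a1*, *Lum* and *Dcn*, and 2 to 3 were without those same libraries. The summed level of these markers, given above, moved with the matrix lists, which hold 6 of them.

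In the IGF pathway, where binding proteins hold IGF and pappalysins cut them to release it, 4 of 18 tested genes were called lower and 0 higher, against 4.57% of all genes tested called lower. *Igf1*, the ligand, had 5.54, 6.06 and 5.75 CPM under Trim A and 2.24, 3.21 and 2.62 CPM under Trim AG, a log2 fold change of -1.10 ± 0.17 (SE, edgeR adjusted p = 0.00078). *Igfbp2*, a binding protein, had 1.49, 1.39 and 1.34 CPM under Trim A and 0.241, 0.311 and 0.259 CPM under Trim AG, a log2 fold change of -2.36 ± 0.27 (SE, edgeR adjusted p = 0.00017). The groups did not overlap in either, though both were low in every library. The pappalysins *Pappa* and *Pappa2* changed by -0.75 and -0.70, and the call of *Pappa2* was lost without any single library but Trim AG replicate 2. Of 34 tested TGF-beta and BMP pathway genes, 2 were called lower, the co-receptor *Tgfbr3* (-0.74) and the BMP antagonist *Nog* (-0.95), and 1 was called higher, the activin receptor *Acvr2b* (1.05), with a median of -0.07, against 4.57% and 4.56% of all genes tested.

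Of the interferon-stimulated genes, 10 fell and 2 rose. Of 32 tested, 10 were called lower and 2 higher, against 4.57% and 4.56% of all genes tested, 26 were negative, and the median log2 fold change was -0.50. *Gbp2*, an interferon-induced GTPase, had 37.0, 35.9 and 36.1 CPM under Trim A and 17.7, 22.2 and 20.4 CPM under Trim AG, a log2 fold change of -0.86 ± 0.08 (SE, edgeR adjusted p = 4.5e-05). *Ifitm3*, which blocks viral entry, had 35.4, 45.2 and 33.6 CPM under Trim A and 19.5, 22.4 and 22.0 CPM under Trim AG, a log2 fold change of -0.84 ± 0.11 (SE, edgeR adjusted p = 0.00033). *Irf7*, a transcription factor of the response, changed by -0.74, and *Parp14* by -0.67 (-0.58 without Trim A replicate 3, under the threshold). *Mx2* went the other way, with 1.06, 1.28 and 0.881 CPM under Trim A and 2.96, 1.97 and 2.14 CPM under Trim AG, a log2 fold change of 1.13 ± 0.24 (SE, edgeR adjusted p = 0.0049). *Oasl2*, at most 0.71 CPM in any library, was called higher (0.97) and lost the call without any single library. Between 9 and 13 members were called lower when each library was left out. Of 23 tested chemokine, cytokine and NF-kB genes, 3 were called higher, *Ptgs2*, *Il1rl1* (0.99), a receptor of interleukin-33, and *Tnfaip3* (0.74), an inhibitor of NF-kB, and 4 were called lower, the adhesion molecule *Icam1* (-0.72), the chemokine *Cxcl1* (-0.83), the subunit *Relb* (-0.60) and the cytokine *Il33* (-0.92), against the same 4.56% higher and 4.57% lower. The lower count was 2 without Trim A replicate 2, in which *Il33* was highest (13.1 CPM), and 2 without Trim AG replicate 3.

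Muscle genes moved in both directions. Of the sarcomere and muscle genes tested, 25 of 40 were positive, and their median log2 fold change was 0.15, against 0.01 for all genes tested. Sarcomere genes build the contractile filaments, and myogenic regulators switch on their programme. Of 40 tested sarcomere and muscle genes, 3 were called higher and 2 lower, against 4.56% and 4.57% of all genes tested, and of 16 tested myogenic regulators 0 were called by edgeR or by DESeq2, with 6 at an unadjusted p below 0.05. *Acta1*, skeletal muscle actin, had 41.2, 42.1 and 40.0 CPM under Trim A and 81.0, 89.3 and 85.2 CPM under Trim AG, a log2 fold change of 1.05 ± 0.05 (SE, edgeR adjusted p = 3.1e-06). *Tnnc2*, fast skeletal troponin C, had 51.4, 67.5 and 56.5 CPM under Trim A and 95.8, 117 and 106 CPM under Trim AG, a log2 fold change of 0.86 ± 0.10 (SE, edgeR adjusted p = 0.00019), and *Myh11*, smooth muscle myosin, was 0.81. *Pln*, phospholamban, which holds back the calcium pump, had 6.74, 8.94 and 6.77 CPM under Trim A and 3.89, 4.73 and 4.53 CPM under Trim AG, a log2 fold change of -0.77 ± 0.16 (SE, edgeR adjusted p = 0.0043). *Mybpc3*, a cardiac sarcomere protein, had a mean of 0.772 CPM over the 6 libraries and lost its call without Trim A replicate 2, Trim A replicate 3, Trim AG replicate 1 or Trim AG replicate 3. *Tnnt2*, cardiac troponin T, had 23.8, 45.1 and 24.7 CPM under Trim A and 22.1, 39.8 and 25.5 CPM under Trim AG, a log2 fold change of -0.10 ± 0.27 (SE, edgeR adjusted p = 0.8), so replicate 2 was the highest of both groups and the groups overlapped. The count depended on single libraries: 6 members were called higher without Trim A replicate 2, 5 without Trim AG replicate 3, and 6 without both libraries numbered 2. *Myog*, a master factor of myoblast fusion, had 47.3, 65.7 and 52.3 CPM under Trim A and 39.5, 51.9 and 40.9 CPM under Trim AG, with overlapping groups.

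Reported targets of miR-125b had a median near 0. Of 41 tested, 3 were called higher and 0 lower, against 4.56% and 4.57% of all genes tested. The median log2 fold change was 0.04, and the 38 not called lay between -0.49 and 0.48. *Dusp6*, a phosphatase of ERK, had 49.4, 40.9 and 42.7 CPM under Trim A and 68.0, 66.4 and 76.9 CPM under Trim AG, a log2 fold change of 0.67 ± 0.08 (SE, edgeR adjusted p = 0.0002). *Tnfaip3* had 4.85, 3.60 and 4.19 CPM under Trim A and 8.17, 5.88 and 7.19 CPM under Trim AG, a log2 fold change of 0.74 ± 0.17 (SE, edgeR adjusted p = 0.0072), and *Trim71*, at most 2.01 CPM, had a log2 fold change of 0.61 and lost its call without any single library. Which of these genes carry a site for the seed was not analysed here. Of 15 tested genes that the paper names, *Actb* alone was called, as lower, against the same shares of all genes tested. The apoptosis genes among them had log2 fold changes of 0.05 ± 0.05 (SE, edgeR adjusted p = 0.55) for *Bak1*, 0.28 ± 0.10 (SE, edgeR adjusted p = 0.059) for *Bmf* and 0.11 ± 0.14 (SE, edgeR adjusted p = 0.58) for *Traf6*. *Bax* lay between 133 and 148 CPM in all 6 libraries. *Tnfrsf1b* was -0.17, *Hif1an* 0.12, *Dram2* -0.19, *Bcl2l11* -0.38, *Casp2* 0.26 and *Klf13* 0.48 on the log2 scale. *Klf13* was called higher without Trim A replicate 3 (0.62, edgeR adjusted p = 0.013).

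Of 46 tested respiratory chain genes, 0 were called by edgeR or by DESeq2, with 11 at an unadjusted p below 0.05, and their log2 fold changes stayed between -0.22 and 0.25. Of 40 tested HIF targets and glycolysis genes, 4 were called higher and 2 lower, against 4.56% and 4.57% of all genes tested, shares that also hold for the other lists here. *Pfkl*, the liver form of phosphofructokinase, had 67.2, 71.8 and 70.5 CPM under Trim A and 110.4, 105 and 111 CPM under Trim AG, a log2 fold change of 0.64 ± 0.05 (SE, edgeR adjusted p = 1.3e-05). The other 3 higher genes were at most 2.58 CPM, *Ndrg1* (0.81), *Ankrd37* (0.97) and the glucose transporter *Slc2a3* (1.37), and 2 members were called higher without Trim A replicate 1, Trim A replicate 3 or any library of Trim AG. The lower count was 1 without Trim AG replicate 1 or replicate 3. *Hmox1*, heme oxygenase, had 182, 149 and 171 CPM under Trim A and 110.0, 87.6 and 105 CPM under Trim AG, a log2 fold change of -0.73 ± 0.09 (SE, edgeR adjusted p = 0.00029), and it was called lower in this list and among NRF2 antioxidant genes, of which 4 of 24 tested were called lower (*Slc7a11*, *Gpx1*, *Hmox1* and *Osgin1*) and 0 higher. *Gpx1*, glutathione peroxidase, changed by -0.67. Of 28 tested immediate early and heat shock genes, 5 were called higher and 0 lower: *Ier3* (0.60), *Fosb* (1.21), *Fos* (0.66), *Egr3* (1.31) and the chaperone gene *Hsp90aa1* (0.74). Of these 5 genes only *Ier3* exceeded 10 CPM. The higher count was 3 without Trim A replicate 3, and it ranged from 3 to 7 when each library was left out in turn. Of 36 tested genes of lipid synthesis, 1 was called higher (0.86) and 1 lower, the sterol enzyme *Cyp51* (-0.70). Without Trim AG replicate 2, 3 were called lower. Of 9 tested caveola genes, 0 were called by edgeR or by DESeq2, with 3 at an unadjusted p below 0.05.

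The same mimics were compared in hypoxia with other libraries, 3 of Trim AG (39940087 to 42672584 counts) and 3 of Trim A (31064299 to 34505938 counts). By the paper's methods, hypoxia cells were kept in serum-free low-glucose medium, and normoxia cells in fresh medium under normal conditions. Oxygen and medium therefore cannot be told apart in comparisons between the conditions, which are named by oxygen here. There 616 genes (4.03% of 15284 tested) were called higher and 825 (5.4%) lower, with a median SE of 0.15 on the log2 scale against 0.09 in normoxia. Of the genes called higher in normoxia, 269 were also called higher in hypoxia, which is 39.9% of the normoxia set and 43.7% of the hypoxia set. Of those called lower, 355 were shared, 52.4% of the normoxia set and 43.0% of the hypoxia set. The opposite call was seen for 6 and 1 genes. The mitosis list had a median of 0.72 in normoxia and 0.92 in hypoxia, and the replication list 0.56 and 0.59. *Sirt2* had log2 fold changes of -1.63 and -1.73, *Mdh2* of -1.40 and -1.48, *Ptgs2* of 1.08 and 1.15 and *Negr1* of -2.68 and -2.62. In none of these 4 genes was the difference between the oxygen conditions called.

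A part of the stress response genes differed between the oxygen conditions. Whether the contrast differed between these conditions, oxygen and medium together, was tested directly. The test took the hypoxia difference minus the normoxia difference over the 12 libraries. Of 15605 genes tested, 107 (0.686%) were called more positive and 68 (0.436%) more negative in hypoxia. Of 36 stress response genes tested in normoxia, 8 were called more positive in hypoxia and 0 more negative, and their median went from -0.26 in normoxia to 0.11 in hypoxia. *Trib3* had -1.51 in normoxia and 0.12 ± 0.09 (SE) in hypoxia, a difference of 1.61 ± 0.13 (SE, edgeR adjusted p = 9.1e-05). *Atf5* had -0.92 and 0.09 ± 0.08 (SE), a difference of 1.00 ± 0.09 (SE, edgeR adjusted p = 0.00014). *Ddit3* had -1.20 and -0.09 ± 0.16 (SE), a difference of 1.10 ± 0.18 (SE, edgeR adjusted p = 0.0098), and *Asns*, -0.64 and 0.51 ± 0.11 (SE), was positive in hypoxia but under the fold threshold there, a difference of 1.14 ± 0.14 (SE, edgeR adjusted p = 0.0022). *Phgdh* and *Eif2ak3*, by contrast, were called lower in both conditions. *Acta1* rose by 1.05 in normoxia and 2.34 ± 0.11 (SE) in hypoxia, a difference of 1.28 ± 0.12 (SE, edgeR adjusted p = 0.00021).

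Some genes that Trim AG left near the level of Trim A in normoxia moved in hypoxia. *Tgfb3*, a TGF-beta ligand, had 517, 581 and 501 CPM under Trim A and 465, 600.2 and 509 CPM under Trim AG in normoxia, with overlapping groups, and a log2 fold change of 1.66 ± 0.09 (SE) in hypoxia, a difference of 1.67 ± 0.14 (SE, edgeR adjusted p = 9.1e-05). *Akap12*, a kinase scaffold, had 0.02 and 1.30 ± 0.09 (SE), a difference of 1.26 ± 0.10 (SE, edgeR adjusted p = 9.1e-05). *Klhl41*, a muscle ubiquitin ligase adaptor, had 178, 175 and 174 CPM under Trim A and 179, 183 and 171 CPM under Trim AG in normoxia and -1.11 ± 0.10 (SE) in hypoxia, a difference of -1.14 ± 0.10 (SE, edgeR adjusted p = 9.5e-05). *Myog* differed by -1.58 ± 0.18 (SE, edgeR adjusted p = 0.001), *Fam81a* by -1.13 ± 0.13 (SE, edgeR adjusted p = 0.0013), the chemokine gene *Cxcl12* by -0.73 ± 0.11 (SE, edgeR adjusted p = 0.0055) and the lymphangiogenic factor *Vegfc* by -0.64 ± 0.09 (SE, edgeR adjusted p = 0.0055). The matrix genes *Lox* and *Bgn* fell in both conditions and further in hypoxia, with differences of -1.05 ± 0.16 (SE, edgeR adjusted p = 0.0059) and -1.54 ± 0.34 (SE, edgeR adjusted p = 0.045), and that of *Bgn* was lost when single libraries were left out, with an edgeR adjusted p of up to 0.12. The counts of genes with such a difference depended on single libraries. Those more positive numbered 56 without Normoxia Trim A replicate 1, 70 without its replicate 3, 67 and 58 without Normoxia Trim AG replicates 2 and 3, and 62 without Hypoxia Trim AG replicate 3. Those more negative numbered 29 and 35 without Normoxia Trim A replicates 1 and 3, 39 without Hypoxia Trim A replicate 3, 35 and 34 without Normoxia Trim AG replicates 2 and 3, and 112 and 30 without Hypoxia Trim AG replicates 1 and 3. With DESeq2 the counts were 196 and 145, and with the replicate number as a block they were 204 and 259.

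**Figure D4:**
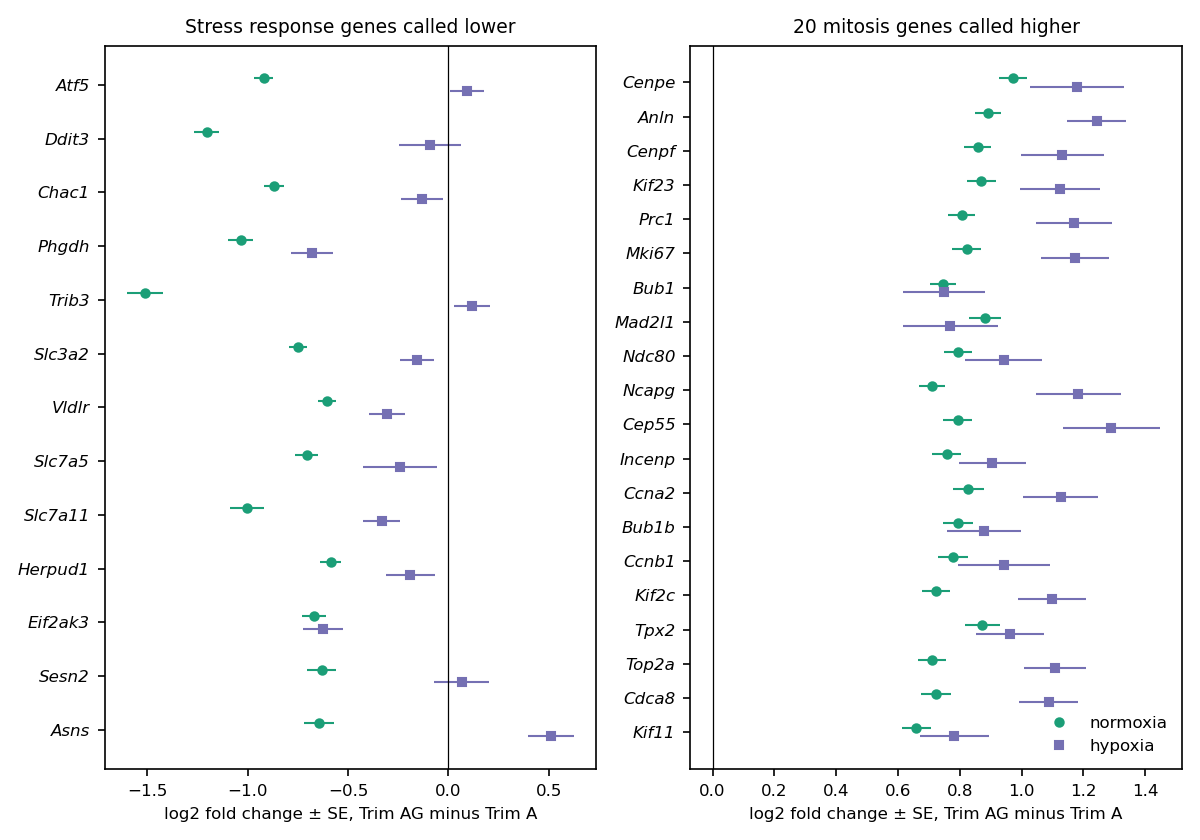
Log2 fold change of Trim AG minus Trim A with its SE (x axis) in normoxia (green circles) and hypoxia (purple squares), for the 13 stress response genes called lower in normoxia (left) and the 20 mitosis genes with the smallest p (right). Both sets were picked by their normoxia calls, which fixes their side of 0 in normoxia. In hypoxia the mitosis genes lie right of 0, and the 13 stress response genes lie nearer to 0 than in normoxia, with 2 of them called lower. Genes picked for low values in normoxia may lie nearer to 0 in other libraries through that choice.

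The other mimics in normoxia place these levels. Means and SD of 3 libraries each are given for miR-125b, Plus A (an added 3′ A) and Trim AGU (a further U removed), and Trim AGU was tested against Trim AG, a contrast that shares the Trim AG libraries with the main one and in which 232 genes (1.57%) were called higher and 187 (1.27%) lower. *Sirt2* was at 104 ± 1.88 CPM for miR-125b, 103 ± 2.54 CPM for Plus A, 104 ± 3.80 CPM for Trim A, 33.5 ± 3.20 CPM for Trim AG and 46.3 ± 7.93 CPM for Trim AGU, a log2 fold change of 0.47 (edgeR adjusted p = 0.061) for Trim AGU against Trim AG. *Trib3* was at 162 ± 5.08, 167 ± 10.8, 122 ± 13.3, 42.9 ± 4.32 and 46.9 ± 7.09 CPM in the same order. *Mki67* was at 203 ± 22.1, 171 ± 31.8, 282 ± 9.25, 499 ± 17.9 and 504 ± 64.5 CPM, and it differed by 0.01 (edgeR adjusted p = 0.95) between Trim AGU and Trim AG. *Trib3* did not pass the threshold between Trim AGU and Trim AG either, at 0.13 (edgeR adjusted p = 0.55), so none of the 3 was called between the shorter mimics.

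Other genes, chosen after their values were seen, are given in the same way. *Mdh2* was at 406 ± 22.6, 404 ± 5.59, 343 ± 9.83, 130.1 ± 6.65 and 270.2 ± 16.4 CPM in the same order, and Trim AGU differed from Trim AG by 1.05 (edgeR adjusted p = 0.00051) on the log2 scale. *Gaa* was at 229 ± 6.40 CPM for Trim A, 62.7 ± 8.52 CPM for Trim AG and 192 ± 17.8 CPM for Trim AGU, a difference of 1.61 (edgeR adjusted p = 0.00051) between the last pair. *Acta1* was at 41.1 ± 1.07, 85.2 ± 4.13 and 38.7 ± 2.73 CPM, a difference of -1.14 (edgeR adjusted p = 0.00051). *Actb*, *Bgn* and *Lox* were higher with Trim AGU than with Trim AG, by 0.78 (edgeR adjusted p = 0.0055), 1.42 (edgeR adjusted p = 0.0031) and 0.86 (edgeR adjusted p = 0.0038), and *Ptgs2* and *Tnnc2* were lower, with log2 fold changes of -0.71 (edgeR adjusted p = 0.0059) and -1.12 (edgeR adjusted p = 0.0015). *Col1a2* was at 4187 ± 460.0, 1567 ± 123 and 2339.5 ± 669.9 CPM, and its difference of 0.58 (edgeR adjusted p = 0.082) did not pass.

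**Figure D5:**
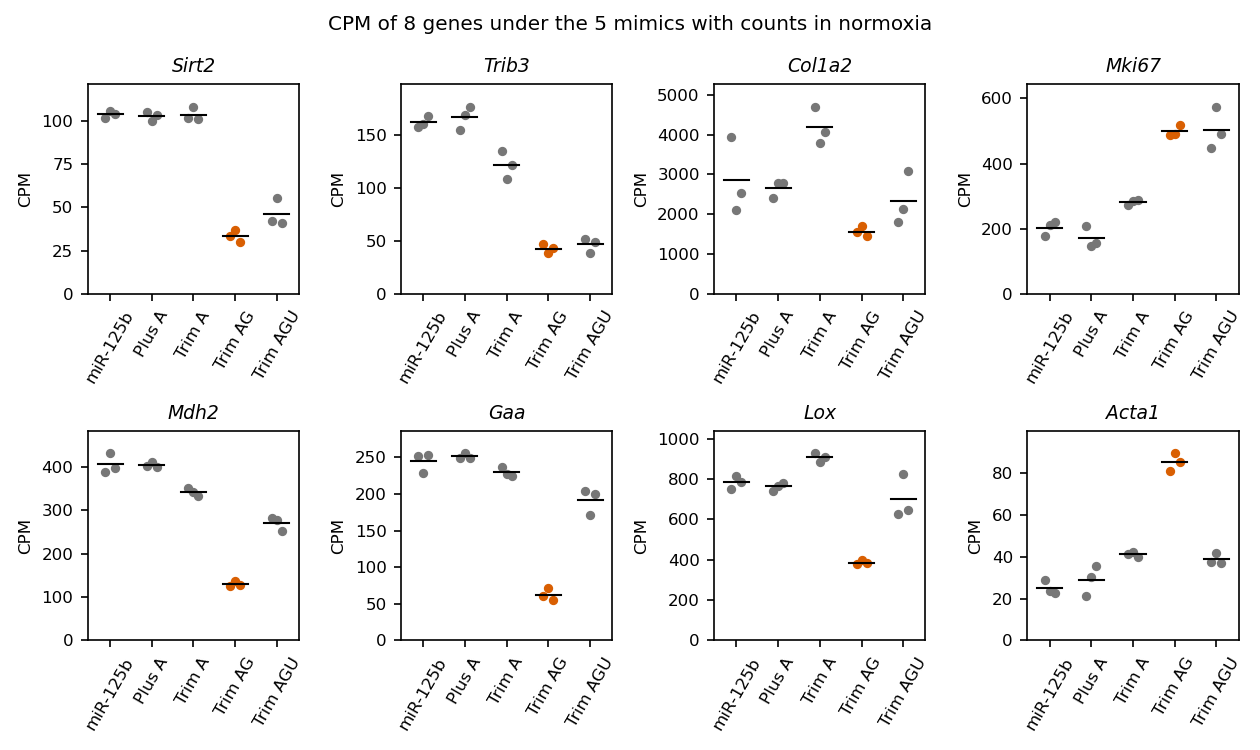
CPM (y axis, from 0) of 8 genes in each library of the 5 mimics with counts in normoxia (x axis), with Trim AG in orange and a bar at each mean. *Sirt2*, *Trib3* and *Mki67* under Trim AGU lie close to Trim AG, while *Mdh2*, *Gaa*, *Lox* and *Acta1* under Trim AGU lie nearer to Trim A.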

How the data were processed

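RNA-seq counts of 36 libraries (3 for each of 12 groups) were the starting point, and 33 libraries had counts per library. The deposited values are raw read counts per gene, which the authors made from non-stranded poly-A libraries. The submitters' processing notes name HISAT2 and StringTie, and the genome build is not given in the sources used here. Without strand, a gene and an antisense partner cannot be told apart. Count tables (11) were joined on the gene identifier, and a gene missing from a table was counted as 0. The gene length column was used for the length trend. The authors' fold changes and p-values were not used, nor was 1 table that holds nothing else. Where a symbol had several identifiers, the one with the highest mean count was taken.

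Tests used edgeR 4.0.16 in R 4.3.3 (TMM, filterByExpr, quasi-likelihood F test) on the 6 libraries, with Benjamini-Hochberg adjusted p below 0.05 and at least 1.5-fold. The SE is that of the log2 fold change. The difference between oxygen conditions, which also differ in medium, was an interaction over 12 libraries. DESeq2 1.42.0, filters, scaling, other sets of libraries, a replicate block and omission of each library were alternatives. Tests were checked on simulated counts. Totals of 28361216 to 30547343 limit precision for genes of few counts. The members and gene lists were chosen with earlier results of these data known. Named genes were, among coding genes with at least 5 CPM and no overlap, the 10 per direction with the largest change and the 5 with the smallest p, the genes the paper names, up to 4 called per list and direction together with members whose role is described, and the 5 per direction with the smallest interaction p. Other genes were chosen after their values were seen. A few results are not reported here. Analyses used Python 3.11.15, pandas 2.3.3, numpy 2.4.6 and matplotlib 3.10.9.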

Additional observations from a re-analysis of the deposited data

Results flagged for a closer look

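The effect of Trim AG against Trim A differed between the oxygen conditions, in edgeR's test of the difference itself, for 107 genes that were more positive and 68 that were more negative in hypoxia. The conditions also differ in medium. The values are the hypoxia minus the normoxia log2 fold change, with both fold changes beside them. Among stress response, growth arrest and antioxidant genes that were lower in normoxia, the differences were 1.61 for *Trib3* (-1.51 in normoxia, 0.12 in hypoxia), 1.10 for *Ddit3* (-1.20 in normoxia, -0.09 in hypoxia), 1.00 for *Atf5* (-0.92 in normoxia, 0.09 in hypoxia), 0.90 for *Gadd45a* (-1.15 in normoxia, -0.24 in hypoxia) and 0.72 for *Chac1* (-0.87 in normoxia, -0.13 in hypoxia), and those of *Slc7a11* and *Hmox1* were 0.65 and 0.63. Among genes near 0 or higher in normoxia, they were 1.67 for *Tgfb3* (-0.03 in normoxia, 1.66 in hypoxia), 1.28 for *Acta1* (1.05 in normoxia, 2.34 in hypoxia) and 1.26 for *Akap12* (0.02 in normoxia, 1.30 in hypoxia). In the negative direction, matrix genes that fell in both conditions had differences of -1.05 for *Lox* (-1.24 in normoxia, -2.28 in hypoxia) and -1.54 for *Bgn* (-1.61 in normoxia, -3.14 in hypoxia). Genes called in opposite directions were -3.22 for *Mx2* (1.13 in normoxia, -2.08 in hypoxia) and -1.88 for *Ndrg1* (0.81 in normoxia, -1.05 in hypoxia). Genes higher in normoxia alone at the threshold had differences of -1.76 for *Fosb* (1.21 in normoxia, -0.54 in hypoxia), -1.21 for *Acvr2b* (1.05 in normoxia, -0.14 in hypoxia) and -0.91 for *Pfkl* (0.64 in normoxia, -0.26 in hypoxia). The remaining named genes were -1.58 for *Myog* (-0.32 in normoxia, -1.89 in hypoxia), -1.14 for *Klhl41* (0.01 in normoxia, -1.11 in hypoxia), -1.13 for *Fam81a* (-0.32 in normoxia, -1.43 in hypoxia), -1.12 for *Bmf* (0.28 in normoxia, -0.82 in hypoxia), -0.73 for *Cxcl12* (-0.36 in normoxia, -1.08 in hypoxia) and -0.64 for *Vegfc* (-0.06 in normoxia, -0.69 in hypoxia). The tests of *Acvr2b*, *Bgn*, *Bmf*, *Fosb*, *Hmox1*, *Mx2*, *Ndrg1*, *Pfkl* and *Slc7a11* lost the call when at least 1 library was left out, with edgeR adjusted p of up to 0.14.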

How the results depend on the processing

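The counts of 675 genes called higher and 677 called lower were within 1.5 times under DESeq2 (573 and 619), no filter on low counts (714 and 705), DESeq2 size factors in edgeR (672 and 681), all normoxia libraries in 1 fit (621 and 661), all libraries in 1 fit (514 and 586) and removal of a trend on gene length (686 and 667). Leaving out each library in turn gave 572 to 664 higher and 580 to 734 lower. With a 2-fold threshold the counts were 192 and 183, and with no fold threshold 2463 and 2652. The genes whose difference between Trim AG and Trim A was more positive or more negative in hypoxia (107 and 68) numbered 196 and 145 with DESeq2, 33 and 23 with a 2-fold threshold, and 56 to 132 and 29 to 112 when each of the 12 libraries was left out. Of 1551 refits of the 111 named genes, 1457 kept direction and side of the threshold, 93 (of 23 genes) were no longer called, 1 was newly called and 0 were reversed. Of 756 counts of called list members, 681 were within 1.5 times, and of 378 list medians, 345 moved by less than the spread. When single libraries were left out, the median log2 fold changes that moved more were genes the paper names from -0.00044 to 0.066 (reported 0.0084), myogenic regulators from -0.020 to 0.042 (reported 0.042), interferon-stimulated genes from -0.55 to -0.49 (reported -0.50), chemokines, cytokines and NF-kB genes from -0.13 to -0.032 (reported -0.041), TGF-beta and BMP pathway genes from -0.11 to -0.056 (reported -0.073), IGF pathway genes from -0.33 to -0.19 (reported -0.26), cholesterol and fatty acid synthesis genes from -0.19 to -0.094 (reported -0.16), unfolded protein and integrated stress response genes from -0.30 to -0.19 (reported -0.26), HIF targets and glycolysis genes from -0.025 to 0.021 (reported 0.018), immediate early and heat shock genes from 0.035 to 0.20 (reported 0.085), amino acid and glutamine transporter genes from -0.39 to -0.32 (reported -0.37), cardiomyocyte markers from -0.25 to 0.26 (reported -0.069), myoblast markers from -0.060 to 0.25 (reported 0.0012). Without both libraries numbered 2, chosen after seeing the data, the medians that moved more were genes the paper names -0.031, chemokines, cytokines and NF-kB genes -0.089, IGF pathway genes -0.34, unfolded protein and integrated stress response genes -0.31, HIF targets and glycolysis genes -0.010, microRNA machinery genes 0.042, cardiomyocyte markers -0.27, myoblast markers 0.19, macrophage markers -0.15. The cause was not tested. Leaving out a library leaves a group with 2 samples.

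Same-numbered libraries of Trim A and Trim AG were not paired by the labels, and their deviations correlated at 0.08, 0.06 and 0.01 in normoxia and 0.33, 0.22 and -0.02 in hypoxia. The crossed pairs of replicates 1 and 2 in hypoxia correlated at -0.24 and -0.31. What same-numbered libraries share was not tested. With the replicate number as a block, 674 genes were called higher and 679 lower in normoxia, and the difference between oxygen conditions was called for 204 and 259. In normoxia and in hypoxia, replicates 1 and 2 of Trim AG, and not replicate 3, correlated best with their own number.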

Other observations

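*Hprt1* was not high in Trim AG replicate 2 alone among the normoxia libraries. It was at 9.40 CPM in Trim AGU replicate 1, against 1.08 and 1.14 CPM in the other two libraries of that group. *Zswim8* was at 17.6 CPM in Trim AGU replicate 3, close to the 17.3 CPM of Trim AG replicate 2, while the other libraries of Trim AGU were at 6.13 and 7.75 CPM. What these libraries share was not tested. These values were chosen after they were seen.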
